A study of Mus musculus with 24 samples.

Results

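The genes described here are the collagen chains and a short list of enzymes that modify, trim or cross-link collagen, in mouse lungs that carry a TGF-beta1 transgene. Members were taken by symbol: every gene named Col, a number, the letter a and a number, plus Lox, Loxl2, Loxl4, Plod1, P4ha1, P4ha2 and Adamts2. Of 51 such genes in RefSeq, 36 were measured, 31 of 44 collagen chains and 5 of 7 enzymes, among 13499 genes in all. Each gene was represented by 1 probe set, the one with the highest mean over the arrays, and no expression change entered that choice of probe set. The members themselves were chosen with earlier results of these data known. The 15 members not analysed here are Col1a2, Col4a1, Col4a2, Col4a5, Col4a6, Col5a3, Col6a4, Col6a5, Col6a6, Col7a1, Col12a1, Col26a1, Col28a1, Loxl2 and Adamts2. The partner chains of type I collagen and the common chains of type IV collagen are therefore outside the values below.

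Total RNA from the right lobe of the lung was hybridised to 24 whole-transcript arrays, 1 per mouse. TG mice, which carry the TGF-beta1 transgene, numbered 17 and WT mice 7, on 6 inbred backgrounds. By the design text, the strains prone to fibrosis are C57BL/6J, A/J and AKR/J, and the resistant ones are 129 (S129 in the labels), BALB/cJ (BC) and C3H. There were 3 TG mice and 1 WT mouse in every strain except C57BL/6J, which had 2 TG and 2 WT mice. The sets thus held 8 TG and 4 WT prone mice, and 9 TG and 3 WT resistant mice. All 24 mice, WT included, drank doxycycline for 2 weeks, so the TG and WT groups share the drug and differ in the transgene. The sources used here do not state the promoter of the transgene, its number of integrations, or the age and sex of the mice. A code for fibrosis among the sample characteristics, taken literally, gives the 2 sets the opposite names. Prone and resistant follow the design text here, and every prone minus resistant sign would turn if the code were right. The values are log2 intensities as deposited, on which a difference of 1 is a 2-fold change. Array medians lay between 7.76 and 7.84, and pairs of mice within a group had correlations of 0.992 to 0.997 across genes. Sftpc, the surfactant protein of alveolar type II cells, lay between 14.21 and 14.46 in TG lungs and between 14.28 and 14.43 in WT lungs.

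Collagens are trimers of chains wound into a triple helix. Prolines and lysines of the new chain are hydroxylated in the endoplasmic reticulum, the prolines by enzymes such as P4ha1 and P4ha2 and the lysines by enzymes such as Plod1. The trimer is then secreted, trimmed at its ends and, for the fibril-forming types, cross-linked outside the cell by lysyl oxidases such as Lox and Loxl4. TGF-beta1 is a classical inducer of collagen genes in fibroblasts, and deposition of type I and type III collagen is the defining matrix change of lung fibrosis.

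Across the 6 strains, 19 of the 36 members were higher in TG than in WT lungs, 17 did not pass the test and 0 were lower. Lox, Col1a1, Col3a1 and Col5a2 rose most. All chains of type VI and type IV measured here and both multiplexins rose by less, and the transmembrane collagens and both prolyl 4-hydroxylase subunits did not pass. The test was limma with strain and genotype as terms and a threshold of 0.05 on p-values adjusted over all 13499 genes. Of all genes tested, 13.2% were called higher and 13.5% lower, and 26.7% were called in either direction. At an unadjusted p under 0.05, 22 members passed, of which only Col23a1 was lower. The share of all genes was not counted at an unadjusted p, here or below. The median change was 0.16 over the 36 members and 0.00 over all genes (log2), and 31 members had a positive change. In whole lung, more cells of a type and more RNA per cell cannot be told apart, and this holds for every change below.

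**Figure D1:**
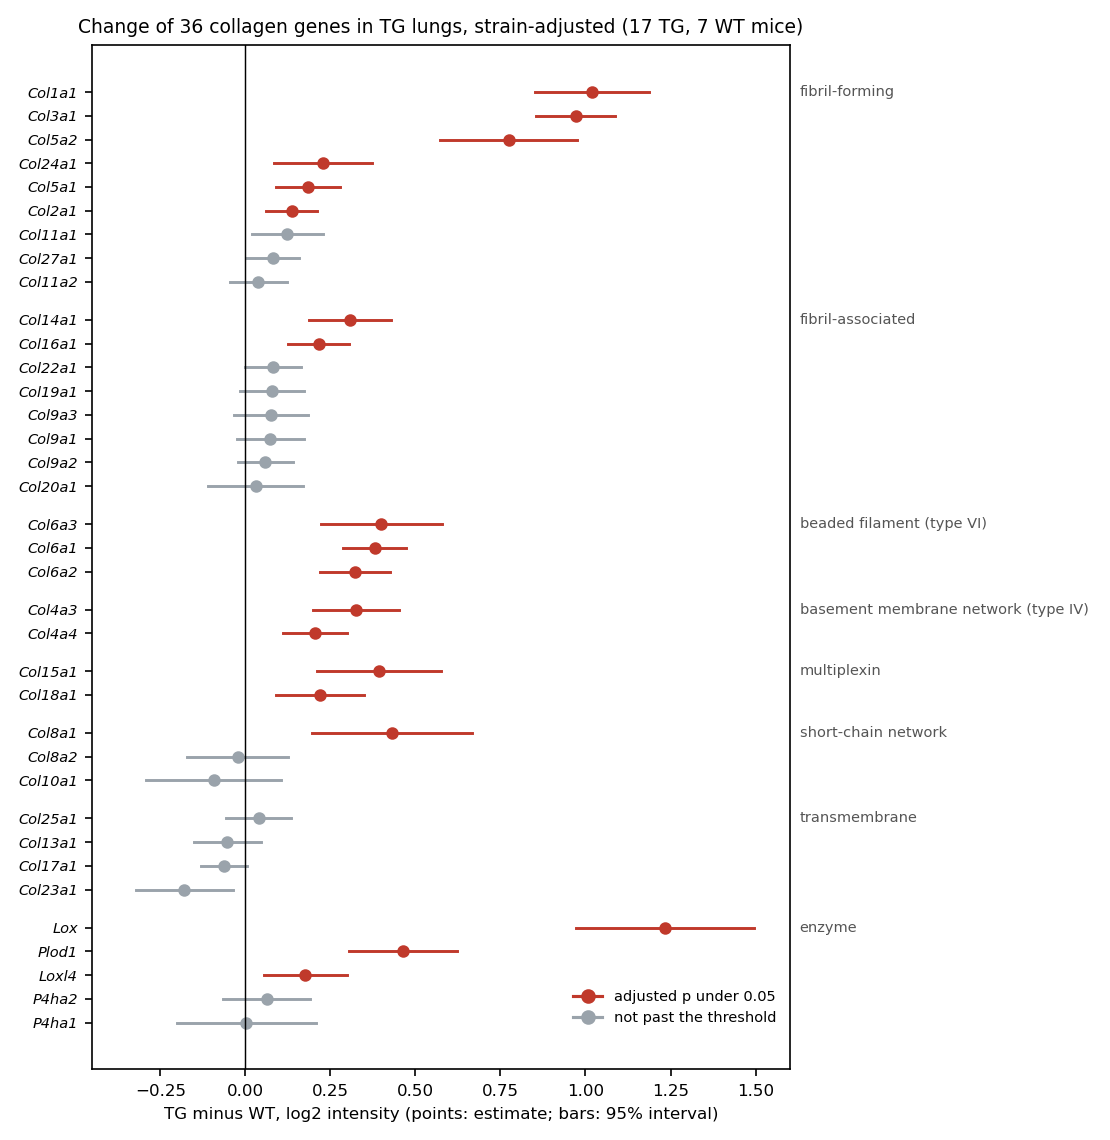
TG minus WT change (log2 intensity, horizontal axis) of each of the 36 measured members over all 6 strains, grouped by class, with bars for the 95% interval of the limma estimate, red where the test passed and grey elsewhere. Lox, Col1a1, Col3a1 and Col5a2 stand to the right of the other members, and no member that passed the test lies left of 0.

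Among the fibril-forming chains, 6 of 9 rose, with a class median of 0.19. Col1a1, the main chain of type I collagen, had 12.19, 11.80 and 11.98 in the TG mice of A/J, 11.16, 11.39 and 11.09 in those of AKR/J and 12.24 and 11.92 in those of C57BL/6J. In the resistant strains its TG values were 11.27, 11.28 and 11.53 in 129, 11.21, 11.19 and 11.33 in BALB/cJ, and 11.04, 11.24 and 11.16 in C3H. The WT mice had 10.62 in A/J, 10.04 in AKR/J, 10.94 and 10.79 in C57BL/6J, 10.40 in 129, 10.69 in BALB/cJ and 10.36 in C3H. The lowest TG mouse, at 11.04, was thus above the highest WT mouse, at 10.94. Col1a1 was the only member for which all 17 TG mice lay above all 7 WT mice, which held for 1.02% of all genes, and the reverse, found for no member, for 0.615%. Within every strain separately, all TG mice were above all WT mice for 6 members, Col1a1, Col3a1, Col5a2, Col6a1, Col6a2 and Lox (4.02% of all genes), and below for 0 (3.68%). Its change was 1.02 ± 0.08 (SE; 17 TG and 7 WT mice), a 2.03-fold rise with an adjusted p of 1.16e-08 by limma.

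Col3a1, the chain of type III collagen, which shares fibrils with type I in lung, had the smallest error of the large changes. Its TG values were 11.15, 10.97 and 11.11 in A/J, 10.20, 10.52 and 10.28 in AKR/J, 11.23 and 10.97 in C57BL/6J, 10.55, 10.63 and 10.74 in 129, 10.50, 10.53 and 10.50 in BALB/cJ, and 10.60, 10.64 and 10.49 in C3H. Its WT values were 9.86 in A/J, 9.40 in AKR/J, 10.26 and 9.98 in C57BL/6J, 9.57 in 129, 9.77 in BALB/cJ and 9.70 in C3H. Every TG mouse was above the WT mice of its own strain, and the lowest TG value, 10.20 in AKR/J, lay under the highest WT value, 10.26 in C57BL/6J. The change was 0.97 ± 0.06, a 1.96-fold rise (adjusted p = 2.31e-10, limma).

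Col5a2, a chain of the type V collagen that sits in the core of type I fibrils, is the chromosomal neighbour of Col3a1 on chromosome 1. It had 9.56, 9.22 and 9.64 in the TG mice of A/J and 9.75 and 9.42 in those of C57BL/6J. In the TG mice of the other strains it had 8.57, 8.62 and 8.35 in AKR/J, 8.71, 8.81 and 8.95 in 129, 8.85, 8.79 and 8.71 in BALB/cJ, and 8.58, 8.77 and 8.79 in C3H. WT mice had 8.27 in A/J, 8.18 in AKR/J, 8.44 and 8.23 in C57BL/6J, 8.25 in 129, 8.16 in BALB/cJ and 8.21 in C3H. WT levels were close together, and the TG mice of A/J and C57BL/6J lay above those of all 4 other strains. Over all strains Col5a2 was 0.77 ± 0.10 higher in TG lungs (1.71-fold, adjusted p = 4.06e-06, limma). The other called fibrillar chains moved less: Col24a1, a minor fibrillar chain, by 0.23 ± 0.07, Col5a1, the partner of Col5a2, by 0.18 ± 0.05, and Col2a1, the main chain of cartilage fibrils, by 0.14 ± 0.04. Col11a1 and Col11a2, which nucleate cartilage fibrils, and the long fibrillar chain Col27a1 had changes of 0.12, 0.04 and 0.08 and did not pass. With C57BL/6J left out, the change of Col24a1 was 0.14 and its call was lost (adjusted p = 0.154, limma), as it was with BALB/cJ left out (0.22, adjusted p = 0.054).

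**Figure D2:**
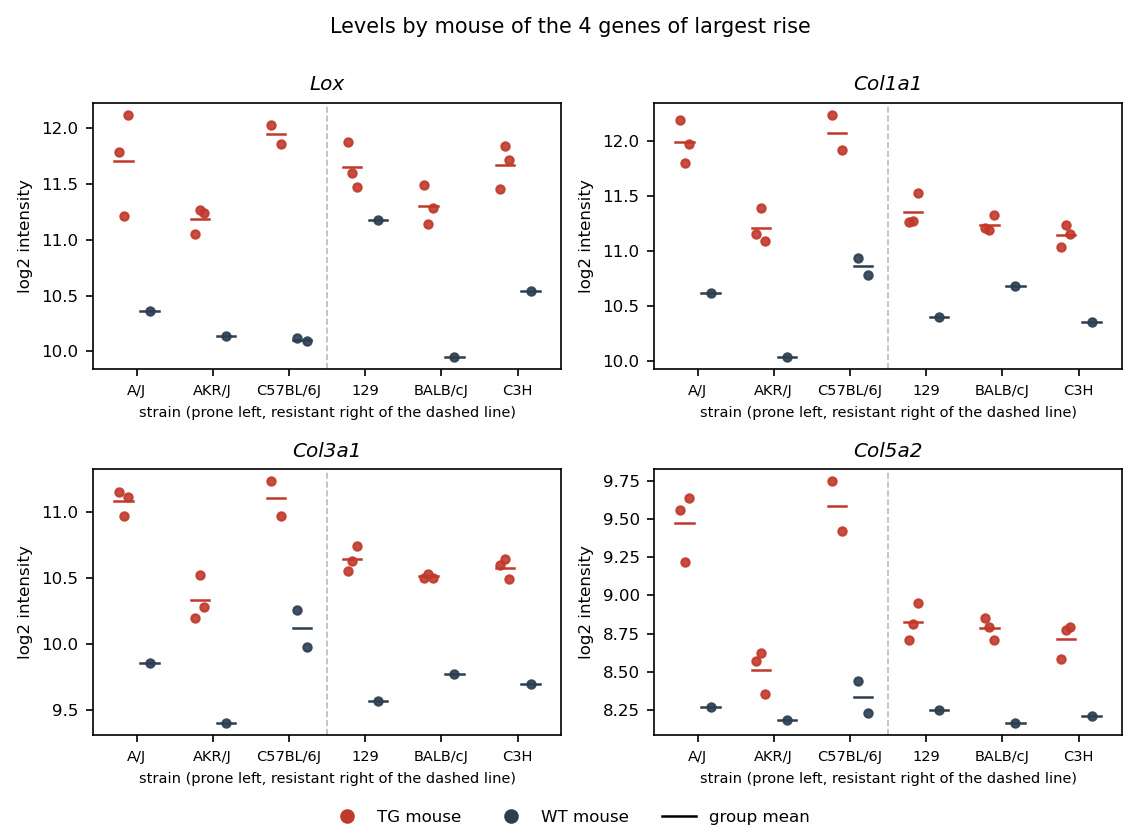
Log2 intensity (vertical axis) of Lox, Col1a1, Col3a1 and Col5a2 in each of the 24 mice, with TG mice (red) left of the WT mice (dark) of their strain, 1 point per mouse and a line at the group mean. In every strain the TG points lie above the WT points, and the TG points of Col5a2 are higher in A/J and C57BL/6J than in the other 4 strains.

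All 3 measured chains of type VI collagen, which forms beaded filaments around cells and basement membranes, rose together, with a median of 0.38. Col6a1 had a lowest, median and highest value of 10.62, 10.84 and 11.18 in TG mice and of 10.33, 10.44 and 10.64 in WT mice, a change of 0.38 ± 0.05 (adjusted p = 1.8e-06, limma). Its neighbour on chromosome 10, Col6a2, ran from 10.29 over a median of 10.49 to 10.72 in TG mice and from 10.06 over 10.21 to 10.31 in WT mice (change 0.32 ± 0.05, adjusted p = 4.54e-05, limma). For both, every TG mouse was above the WT mice of its own strain. Col6a3, the largest chain, was less even over strains, although its dependence on strain did not pass the test (adjusted p = 0.132, limma). In prone TG mice it had 10.67, 10.62 and 10.53 in A/J, 10.38, 10.60 and 10.48 in AKR/J and 10.82 and 10.68 in C57BL/6J, against WT values of 10.12 in A/J, 9.93 in AKR/J and 10.13 and 9.96 in C57BL/6J. In the resistant strains its TG values were 10.36, 10.57 and 10.57 in 129, 10.15, 10.09 and 10.49 in BALB/cJ and 10.48, 10.68 and 10.32 in C3H, against WT values of 9.91 in 129, 10.42 in BALB/cJ and 10.35 in C3H. TG and WT mice were apart in the 3 prone strains and 129, and overlapped in BALB/cJ and C3H. The change over all strains was 0.40 ± 0.09 (adjusted p = 0.00124, limma).

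The promoters of 3 members that rose are printed to show the letters upstream of a fibrillar, a type VI and a type IV chain. Each is the 250 bases before the annotated start, from RefSeq GRCm38.p6, 5′ to 3′ on the strand of the gene. Capitals mark CAGAC, the short Smad-binding motif, or its reverse complement GTCTG, and TGANTCA, the AP-1 motif.
Col3a1, chr1:45311288-45311537, plus strand: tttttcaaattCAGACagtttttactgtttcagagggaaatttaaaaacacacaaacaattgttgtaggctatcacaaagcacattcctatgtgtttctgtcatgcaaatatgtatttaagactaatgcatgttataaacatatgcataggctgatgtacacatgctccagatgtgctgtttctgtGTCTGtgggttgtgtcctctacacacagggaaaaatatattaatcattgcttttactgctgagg
Col6a1, chr10:76726045-76726294, minus strand: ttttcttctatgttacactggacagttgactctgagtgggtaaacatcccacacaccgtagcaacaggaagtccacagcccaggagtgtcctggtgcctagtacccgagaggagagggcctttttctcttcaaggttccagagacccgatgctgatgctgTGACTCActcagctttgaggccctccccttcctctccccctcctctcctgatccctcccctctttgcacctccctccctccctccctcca
Col4a4, chr1:82586850-82587099, minus strand: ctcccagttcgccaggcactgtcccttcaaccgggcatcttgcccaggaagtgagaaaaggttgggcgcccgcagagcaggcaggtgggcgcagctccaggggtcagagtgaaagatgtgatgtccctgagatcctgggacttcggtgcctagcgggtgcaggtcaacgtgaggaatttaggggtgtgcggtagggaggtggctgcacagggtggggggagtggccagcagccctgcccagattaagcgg
The Col3a1 promoter held 2 matches to CAGAC, Col6a1 held 1 match to TGANTCA, and Col4a4 held neither.

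Promoter entries were found for 28 of the 36 members (31 promoters). Those of Col1a1, Col2a1, Col4a3, Col5a2, Col9a3, Col14a1, Col22a1 and Lox were not matched. On both strands, CAGAC was present for 14 of the 28 members, 8 of 13 that rose and 6 of 15 that did not pass. Counted by promoter, it was in 14 of 31 for the members, in 8 of 15 for those that rose, and in 42.2% of all 32851 promoters of this length. TGANTCA was found for Col6a1 alone, against 6.7% of all promoters. CCAAT was found for 6 members (33.8% of all promoters), GGGCGG for 16 (17 of 31 promoters, against 32.7%) and TATAAA for 6 (12.4%). These matches describe letters in a window of 250 bases and were not tested.

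Both measured chains of the type IV network rose. Col4a3 and Col4a4 form, with a chain not analysed here, the type IV collagen of the alveolar and glomerular basement membranes, and they lie side by side on chromosome 1. Col4a3 ran from 9.71 over a median of 9.87 to 10.24 in TG mice and from 9.35 over 9.47 to 9.86 in WT mice, a change of 0.33 ± 0.06 (adjusted p = 0.000339, limma). Col4a4 ran from 9.25 over 9.5 to 9.71 in TG mice and from 8.99 over 9.25 to 9.45 in WT mice (0.20 ± 0.05, adjusted p = 0.00191, limma). A/J, which had large rises of Col1a1 and Col5a2, had -0.04 ± 0.11 for Col4a3 and 0.00 ± 0.10 for Col4a4, while AKR/J had 0.67 ± 0.11 and 0.41 ± 0.10.

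The multiplexins Col15a1 and Col18a1, basement membrane collagens whose cleaved ends include endostatin, both rose. Col15a1 had 8.76, 8.67 and 9.45 in the TG mice of A/J, 8.38, 8.36 and 8.29 in AKR/J, 9.01 and 8.82 in C57BL/6J, 8.68, 8.68 and 8.67 in 129, 8.37, 8.27 and 8.36 in BALB/cJ and 8.53, 8.75 and 8.49 in C3H. Its WT values were 8.45 in A/J, 7.90 in AKR/J, 8.36 and 8.17 in C57BL/6J, 8.12 in 129, 8.18 in BALB/cJ and 8.63 in C3H. The TG mice were above the WT mice of their strain except in C3H, where they lay on both sides of it. The change was 0.39 ± 0.09 (adjusted p = 0.00189, limma), and that of Col18a1 was 0.22 ± 0.06 (adjusted p = 0.0114). With C57BL/6J left out, Col18a1 changed by 0.12 and lost its call (adjusted p = 0.102).

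Of the 3 short-chain network collagens only Col8a1, a chain of vessel walls, passed. Its TG values were 9.44, 9.05 and 9.20 in A/J, 8.62, 8.91 and 8.98 in AKR/J, 9.45 and 9.42 in C57BL/6J, 8.85, 9.08 and 8.97 in 129, 8.67, 8.62 and 8.93 in BALB/cJ and 8.87, 9.43 and 9.34 in C3H. WT mice had 8.49 in A/J, 8.75 in AKR/J, 8.49 and 8.21 in C57BL/6J, 8.96 in 129, 8.43 in BALB/cJ and 9.07 in C3H. The groups were apart in A/J, C57BL/6J and BALB/cJ and overlapped in AKR/J, 129 and C3H. The change was 0.43 ± 0.11 (adjusted p = 0.00648, limma), and 0.26 with C57BL/6J left out, where the call was lost (adjusted p = 0.0909). Col8a2, its partner, and Col10a1, the collagen of hypertrophic cartilage, had -0.02 and -0.09 and did not pass.

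Of the 8 fibril-associated collagens, which lie on the surface of fibrils, 2 rose: Col14a1 by 0.31 ± 0.06 (adjusted p = 0.000344, limma) and Col16a1 by 0.21 ± 0.04 (adjusted p = 0.000771). The cartilage chains Col9a1, Col9a2 and Col9a3 had changes of 0.07, 0.06 and 0.07, Col19a1 of 0.08, Col20a1 of 0.03 and Col22a1 of 0.08, and none passed. None of the 4 transmembrane collagens passed. Col25a1 had a change of 0.04, Col13a1 of -0.05 and Col17a1, a collagen of hemidesmosomes, of -0.06. Col23a1 had the most negative change of all members, -0.18 ± 0.07 (95% interval -0.32 to -0.04, adjusted p = 0.0567, limma). With AKR/J left out it was -0.24 and passed (adjusted p = 0.0175).

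Among the enzymes, 3 of 5 rose and the prolyl 4-hydroxylase subunits did not pass. Lox, the lysyl oxidase that starts cross-links between collagen and elastin molecules, had the largest change of any member. Its TG mice had 11.79, 11.21 and 12.12 in A/J, 11.05, 11.27 and 11.24 in AKR/J, 12.03 and 11.86 in C57BL/6J, 11.88, 11.60 and 11.47 in 129, 11.49, 11.14 and 11.29 in BALB/cJ, and 11.46, 11.84 and 11.72 in C3H. Its WT mice had 10.36 in A/J, 10.14 in AKR/J, 10.12 and 10.09 in C57BL/6J, 11.18 in 129, 9.95 in BALB/cJ and 10.54 in C3H. All TG mice were above the WT mice of their strain, and the WT mouse of 129 stood above the other WT mice and inside the range of TG mice. The change was 1.23 ± 0.13, a 2.35-fold rise (adjusted p = 3.12e-07, limma).

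Plod1, a lysyl hydroxylase, had 10.96, 11.04 and 11.21 in the TG mice of A/J, 10.30, 10.75 and 10.18 in AKR/J, 10.77 and 10.56 in C57BL/6J, 11.08, 11.21 and 11.10 in 129, 10.40, 10.46 and 10.48 in BALB/cJ, and 10.35, 10.39 and 10.33 in C3H. WT mice had 10.24 in A/J, 10.22 in AKR/J, 10.01 and 9.92 in C57BL/6J, 10.70 in 129, 10.30 in BALB/cJ and 9.93 in C3H. TG mice were above WT mice in every strain but AKR/J, where 1 of 3 was below, and the change was 0.46 ± 0.08 (adjusted p = 9.35e-05, limma). Loxl4, another lysyl oxidase, changed by 0.18 ± 0.06 (adjusted p = 0.0302) and was called under 24 of 37 alternatives. It is the only member with 2 probe sets, and the second one, at a lower level, had a mean strain change of 0.08 against 0.17 for the one used. P4ha1 had a change of 0.00 ± 0.10 (95% interval -0.20 to 0.21) and P4ha2 of 0.06 ± 0.06 (95% interval -0.07 to 0.19) (adjusted p = 0.987 and 0.513).

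Compared strain by strain, 15 members rose in C57BL/6J and 11 in A/J, against 6.96% and 6.80% of all genes called higher. In 129, 6 members rose (1.56% of all genes), in AKR/J 5 (1.54%), in BALB/cJ 3 (0.993%) and in C3H 3 (0.489%). No strain had a member called lower, where 7.39% of all genes were lower in C57BL/6J, 8.08% in A/J, 1.39% in 129, 0.570% in AKR/J, 1.27% in BALB/cJ and 0.333% in C3H. At an unadjusted p under 0.05, 19 members passed in C57BL/6J, 15 in A/J, 10 in 129, 12 in AKR/J, 8 in BALB/cJ and 7 in C3H. C57BL/6J has 2 WT mice and thus smaller errors, and in the 5 other strains the deviation of the lone WT mouse cannot be told apart from the effect of the transgene. The count for AKR/J was 3 without TG mouse 1 or TG mouse 2 of that strain, and the count for C3H was 1 without its TG mouse 2.

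Col3a1 was the only member called in all 6 strains. Its changes were 1.22 ± 0.13 in A/J, 0.94 ± 0.13 in AKR/J, 0.98 ± 0.11 in C57BL/6J, 1.07 ± 0.13 in 129, 0.74 ± 0.13 in BALB/cJ and 0.88 ± 0.13 in C3H (SE). Col1a1 was called in 5 strains, with 1.36 ± 0.16 in A/J, 1.18 ± 0.16 in AKR/J, 1.21 ± 0.14 in C57BL/6J, 0.97 ± 0.16 in 129 and 0.79 ± 0.16 in C3H. In BALB/cJ its change of 0.55 ± 0.16 did not pass (adjusted p = 0.083, limma). Lox was called everywhere but in 129, with 1.84 ± 0.21 in C57BL/6J, 1.36 ± 0.24 in BALB/cJ, 1.35 ± 0.24 in A/J, 1.13 ± 0.24 in C3H and 1.04 ± 0.24 in AKR/J. In 129 it had 0.47 ± 0.24 (adjusted p = 0.345), beside the high WT mouse named above.

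Col5a2 and Plod1 passed in A/J and C57BL/6J alone, with 1.21 ± 0.16 and 1.25 ± 0.14 for Col5a2 and 0.83 ± 0.15 and 0.70 ± 0.13 for Plod1. Col5a2 came close to the threshold in BALB/cJ (0.62 ± 0.16, adjusted p = 0.0568, limma) and 129 (0.57 ± 0.16, 0.0677). Col8a1 passed in A/J and C57BL/6J too, with 0.74 ± 0.20 in A/J and 1.08 ± 0.17 in C57BL/6J. Its changes elsewhere lay between 0.01 in 129 and 0.31 in BALB/cJ. The 3 type VI chains passed in A/J, C57BL/6J and 129, with Col6a3 at 0.49 ± 0.15, 0.70 ± 0.13 and 0.59 ± 0.15, and at -0.18 ± 0.15 in BALB/cJ. Col14a1 passed in A/J and 129 (0.45 and 0.54), Col16a1 in A/J (0.39), and Col15a1, Col18a1, Col24a1, Col5a1 and Loxl4 in C57BL/6J (0.65, 0.58, 0.56, 0.30 and 0.35). Col4a3 passed in AKR/J, C57BL/6J and BALB/cJ (0.67, 0.39 and 0.45), and Col4a4 in AKR/J (0.41).

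Passing in 1 strain and not in another does not show that strains differ, and the difference itself was tested. Under limma's moderated F test, 0 of 36 members had a TG effect that depended on strain, against 1.34% of all genes. At an unadjusted p under 0.05 there were 10. The lowest adjusted p-values were 0.0824 for Col5a2, 0.108 for Col18a1, 0.113 for Col4a3 and for Col8a1, and 0.132 for Col6a3. With arrays weighted by quality, 3 members passed: Col5a2 (0.0225), Col6a3 (0.041) and Col18a1 (0.047). Leaving out single mice also moved the call, since Col5a2 (0.0299) and Lox (0.0427) passed without TG mouse 2 of A/J, Plod1 (0.038) without TG mouse 2 of AKR/J and Col6a3 (0.0446) without TG mouse 3 of BALB/cJ. For these changed fits the share of all genes called was not counted.

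**Figure D3:**
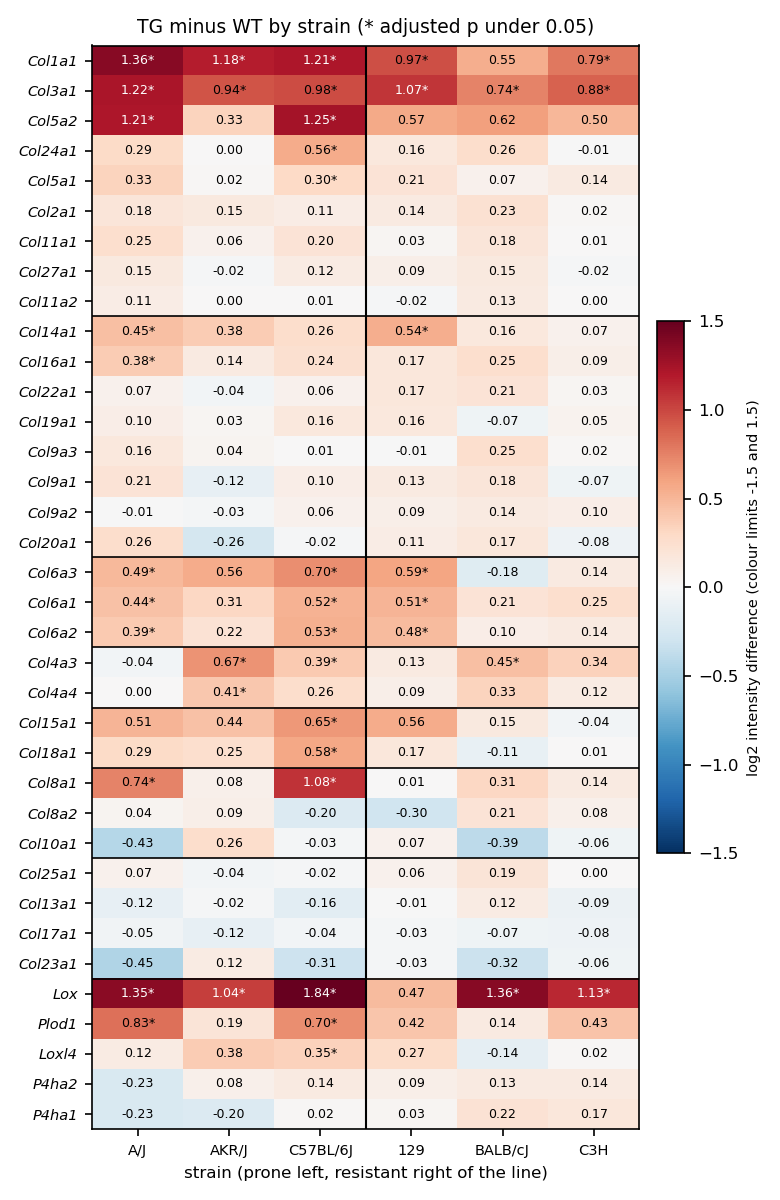
TG minus WT change (log2 intensity, colour and printed value) of each member (rows) in each of the 6 strains (columns), with prone strains left of resistant ones and an asterisk where the change passed limma at an adjusted p under 0.05. Col3a1 is marked in all 6 strains, Col1a1 and Lox in 5 each, and Col5a2, Plod1 and Col8a1 in A/J and C57BL/6J.

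Averaged over the strains of a set, 18 members rose in the prone strains and 9 in the resistant strains, and 0 fell in either. Of all genes, 12% were called higher and 11.5% lower in the prone strains, and 4.92% higher and 5.78% lower in the resistant strains. At an unadjusted p under 0.05, 21 passed in prone and 14 in resistant strains. The 9 members that rose in the resistant strains, Lox, Col1a1, Col3a1, Col5a2, Plod1, Col6a1, Col6a2, Col4a3 and Col14a1, were also among the 18 of the prone strains. The change of Lox was 1.41 ± 0.13 in prone and 0.99 ± 0.14 in resistant strains, that of Col1a1 1.25 ± 0.09 and 0.77 ± 0.09, that of Col3a1 1.05 ± 0.07 and 0.89 ± 0.08, and that of Col5a2 0.93 ± 0.09 and 0.56 ± 0.09, in that order of sets. Members that passed in the prone strains alone included Col8a1 (0.64 ± 0.11 in prone, 0.15 ± 0.12 in resistant strains), Col6a3 (0.58 and 0.18) and Col18a1 (0.37 ± 0.06 and 0.03 ± 0.06).

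The direct test of prone minus resistant effects called 0 of 36 members, against 0.474% of all genes, and 7 passed at an unadjusted p under 0.05. All 7 had a larger rise in the prone strains, with no share of all genes counted at that unadjusted level. The errors and p-values of the direct test come from the spread of mice within groups, not of strains within a set. Col18a1 differed by 0.35 ± 0.09 (95% interval 0.16 to 0.53, adjusted p = 0.0881, limma) and Col1a1 by 0.48 ± 0.13 (95% interval 0.22 to 0.75, adjusted p = 0.0997). The others were Col6a3 (0.40), Col8a1 (0.49), Col5a2 (0.36), Loxl4 (0.23) and Lox (0.43), with adjusted p-values between 0.161 and 0.407. For Lox, the level differed by 0.07 between prone and resistant TG mice and by -0.35 between WT mice. For Col8a1 these differences were 0.19 and -0.29, for Col6a3 0.20 and -0.20, and for Col18a1 0.26 and -0.09. For Col1a1, Col5a2 and Loxl4 the WT difference was positive (0.03, 0.05 and 0.08). The call depended on the fit. Weighting arrays by quality gave 2 members, Col18a1 (adjusted p = 0.0372) and Col1a1 (0.0336), and leaving out TG mouse 2 of C57BL/6J gave Col18a1 (0.0498). With AKR/J left out of the prone set, 4 members passed: Plod1 (0.43, adjusted p = 0.0243), Col5a2 (0.66, 0.0264), Col8a1 (0.76, 0.0326) and Col18a1 (0.41, 0.0492). The share of all genes called was not counted in these changed fits, so their member counts have no background beside them. The rises of Col18a1 and Col1a1 were larger in each of the 3 prone strains than in each of the 3 resistant ones, an order that 6.2% of all genes had. The opposite order, which 4.63% of all genes had, was found for P4ha1 and Col9a2.

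TG mice of the 2 sets were also compared with each other. In this comparison 7 members were higher in prone TG mice and 1 was lower, against 6.44% and 4.69% of all genes. Col1a1 was 0.51 ± 0.07 higher (adjusted p = 0.000127, limma), Col5a2 0.42 ± 0.07 (0.000789), Loxl4 0.31 ± 0.05 (0.000866), Col3a1 0.26 ± 0.06 (0.00561), Col18a1 0.26 ± 0.05 (0.00165), Col6a1 0.15 ± 0.04 (0.0284) and Col5a1 0.15 ± 0.05 (0.0449). Col13a1, a transmembrane collagen, was lower by -0.18 ± 0.05 (0.0304). These errors and p-values measure the spread of mice within groups, not the spread of strains within a set. For Col1a1, the TG mean of prone AKR/J (11.21) lay below that of resistant 129 (11.36). A difference in level between strains cannot be told apart from a difference in how well each strain's own sequence binds the probes. Between prone and resistant WT mice, 0 of 36 members passed limma (0.741% of all genes), with 3 at an unadjusted p under 0.05. These were Lox (-0.35), Col8a1 (-0.29) and Col22a1 (0.15). The prone set has 4 WT mice and the resistant set 3.

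The prone-set differences rested on different strains for different members. Col1a1 and Col18a1 passed with any 1 of the 6 strains left out, with differences of 0.35 to 0.78 and of 0.22 to 0.32. Col3a1 lost its call without A/J or without C57BL/6J, Col5a2 and Loxl4 without C57BL/6J (adjusted p = 0.0636 and 0.0553), and Col13a1 without C57BL/6J or without 129. For Col6a1 and Col5a1, calls with a strain left out are not given here. Their TG means were highest in A/J (11.08 and 8.86), and those of AKR/J (10.75 and 8.52) lay below those of 129 (10.90 and 8.64). Leaving out TG mouse 1 of A/J, TG mouse 2 of AKR/J or TG mouse 1 of C57BL/6J brought the number of called members to 5 each. The TG mice of Col18a1 did not overlap between sets. They had 9.26, 9.38 and 9.22 in A/J, 9.13, 9.10 and 9.10 in AKR/J and 9.45 and 9.17 in C57BL/6J, against 8.98, 8.93 and 9.09 in 129, 8.96, 8.86 and 9.04 in BALB/cJ and 8.95, 9.05 and 8.98 in C3H. The lowest prone value, 9.10, was just above the highest resistant value, 9.09. WT mice had 9.0 in A/J, 8.86 in AKR/J, 8.82 and 8.64 in C57BL/6J, 8.82 in 129, 9.06 in BALB/cJ and 8.98 in C3H, with the sets overlapping. Col18a1 was the 1 member of 36 with such a separation of TG mice, which 0.0741% of all genes had, and 0 had the reverse (0.0519%). By strain means of TG mice, Col18a1, Col24a1 and Loxl4 had all 3 prone strains above all 3 resistant ones (5.34% of all genes), and no member had the reverse (2.90%).

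**Figure D4:**
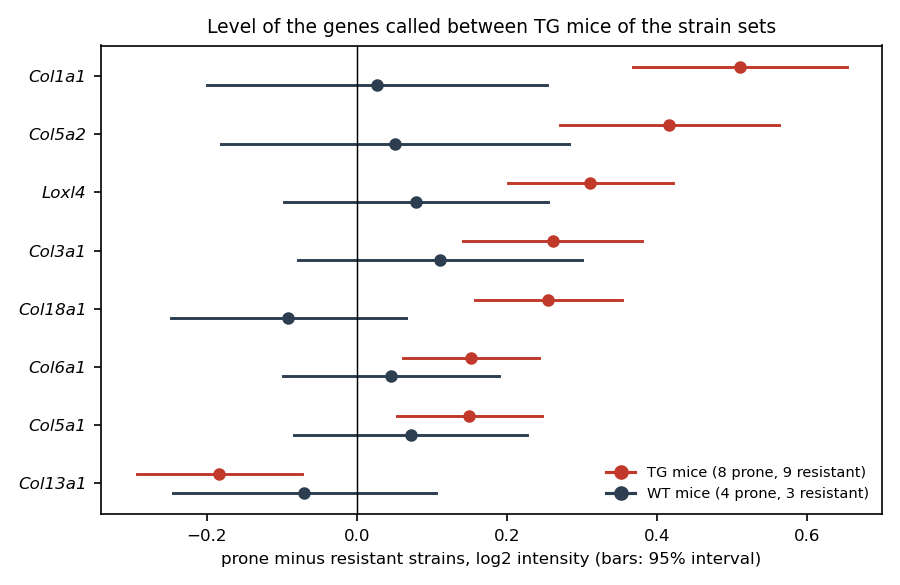
Prone minus resistant difference in level (log2 intensity, horizontal axis) of the 8 members called between TG mice of the sets, with TG mice (8 prone, 9 resistant) above WT mice (4 prone, 3 resistant) in each row and bars for the 95% interval. The TG intervals lie right of 0 for 7 members and left of 0 for Col13a1, and every WT interval includes 0.

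Other genes of collagen production, export and breakdown were followed from lists chosen with earlier results of these data known. Of the biosynthesis list, 16 of 36 genes were measured, of which 12 rose, 1 fell and 3 did not pass, with a median of 0.26. The largest rises were in Mia2 (0.76 ± 0.06), which with its paralog helps procollagen leave the endoplasmic reticulum, Aldh18a1 (0.64 ± 0.08), an enzyme of proline synthesis, and Bmp1 (0.60 ± 0.08), the protease that removes the C-terminal propeptide. Sparc, a secreted collagen-binding chaperone, rose by 0.48 ± 0.03, with 13.97 to 14.24 in TG mice and 13.48 to 13.76 in WT mice. The groups did not overlap, as for 1.02% of all genes with TG mice higher. The same held for P4hb on this list, and for Mrc2, Ddr1, Tnc and Fmod on the lists below. All TG mice were below all WT mice (0.615% of all genes) for Tnxb, Tek and Scgb1a1 on the lists below. Genes of the prolyl 3-hydroxylase family rose, with P3h2 at 0.41, P3h1 at 0.37 and P3h4 at 0.22. P4hb, the subunit shared by the prolyl 4-hydroxylases, rose by 0.26 ± 0.05. The transcription factor gene Creb3l1 (0.27), the coat genes Sec24d (0.26) and Sec23a (0.13) and the prolyl isomerase gene Fkbp7 (0.21) also rose. Adamts14, a protease of the N-terminal propeptide, fell by 0.21 ± 0.05. By strain, 11 of the 16 rose in C57BL/6J (6.96% of all genes), 6 in A/J (6.80%), 4 in AKR/J (1.54%), 3 in 129 (1.56%), 2 in BALB/cJ (0.993%) and 2 in C3H (0.489%). In A/J, 2 of the 16 fell (8.08% of all genes), and 0 fell in the other strains.

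Of 10 measured genes of collagen degradation and uptake, 7 rose and 0 fell, with a median of 0.16. Ctsk, the collagen-cutting cathepsin K, rose by 1.15 ± 0.15, Mmp14, a membrane-bound collagenase, by 1.00 ± 0.09, Mrc2, an endocytic collagen receptor, by 0.80 ± 0.06, and Prep, a prolyl peptidase, by 0.21 ± 0.04. Of 8 collagen receptor genes, 2 rose, 2 fell and 4 did not pass (median 0.03). Mrc2, which is on both lists, and Ddr1 (0.40 ± 0.06) rose, while Itga1 (-0.23 ± 0.05) and Adgrg6 (-0.22 ± 0.05) fell. Of 16 fibril partners, 7 rose, 3 fell and 6 did not pass (median 0.09). Tnc rose by 1.49 ± 0.13, Fmod by 0.89 ± 0.12, Fn1 by 0.72 ± 0.08 and Thbs1 by 0.52 ± 0.14. Tnxb, which bridges fibrils, fell by 0.81 ± 0.10, and the small leucine-rich proteoglycans Ogn and Dcn fell by 0.58 ± 0.09 and 0.20 ± 0.06. These counts are read against 13.2% of all genes higher and 13.5% lower.

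**Figure D5:**
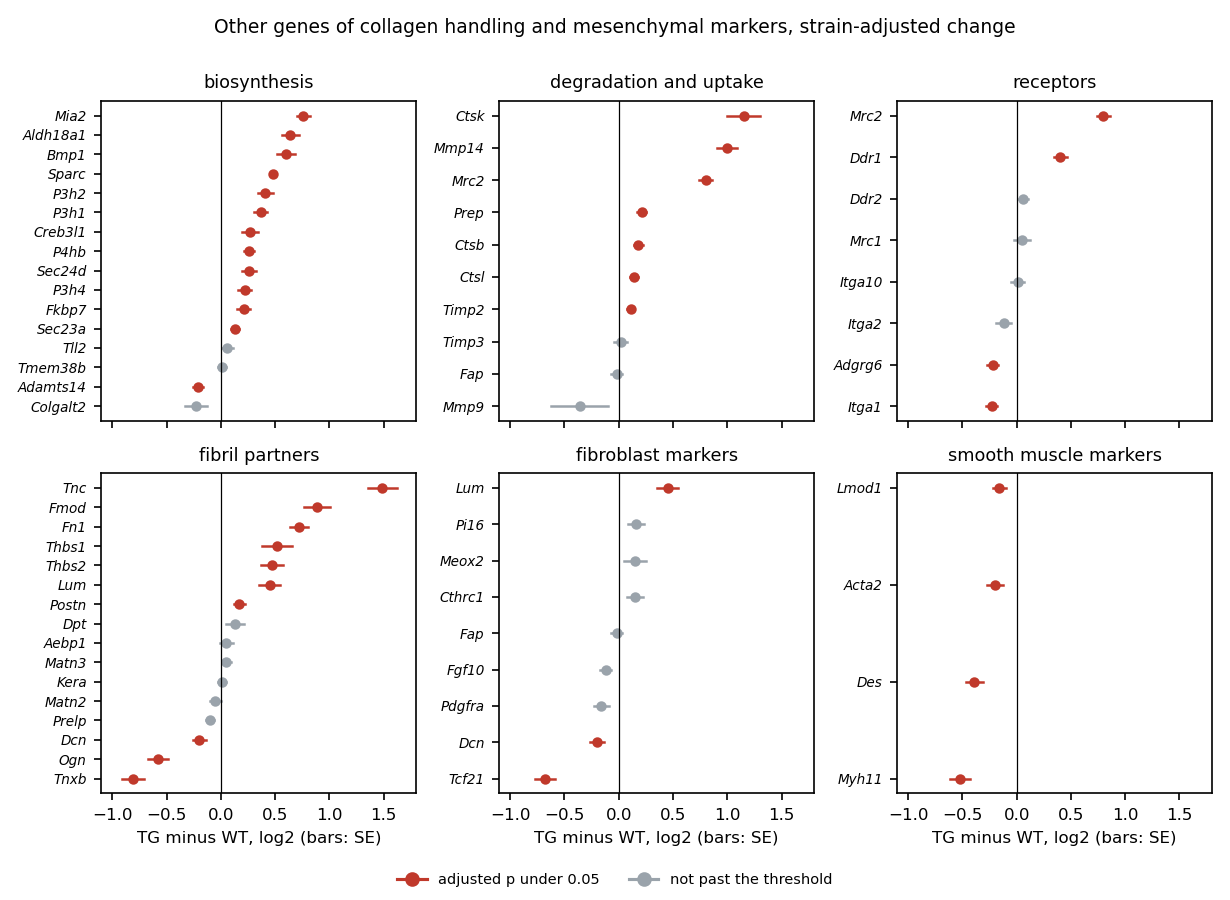
TG minus WT change over all strains (log2 intensity, horizontal axis) of the measured genes of the 4 other collagen lists and of the fibroblast and smooth muscle marker lists, 1 point per gene with a bar of 1 SE on each side, red where limma passed at an adjusted p under 0.05 and grey elsewhere. Tnc, Ctsk and Mmp14 lie farthest to the right, Tnxb, Tcf21 and Ogn farthest to the left, and all 4 smooth muscle markers lie left of 0.

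Markers of the cells that make or surround collagen did not move in 1 direction with the collagen genes, and their part in the result was not tested. Of 9 fibroblast markers, Lum rose by 0.45, Tcf21 (-0.68) and Dcn (-0.20) fell, and 6 did not pass, with a mean level over the list of 9.39 to 9.69 in TG mice and 9.41 to 9.63 in WT mice. Of the myofibroblast and smooth muscle list, 4 of 4 measured genes fell: Myh11 by 0.52, Des by 0.39, Acta2 by 0.20 and Lmod1 by 0.16. Their mean level was 10.02 to 10.53 in TG mice and 10.33 to 10.62 in WT mice, and Tagln, Cnn1 and Actg2 were not measured. Of 3 pericyte markers Rgs5 rose (0.66) and Notch3 fell (-0.17), with levels of 9.78 to 10.81 in TG and 9.75 to 10.16 in WT mice. Of 3 mesothelial markers Msln rose (0.22), with levels of 9.17 to 9.76 in TG and 9.09 to 9.48 in WT mice. Of 6 airway cartilage markers Sox9 rose (0.63), with levels of 7.01 to 7.33 in TG and 6.89 to 7.29 in WT mice.

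Macrophage markers rose in 4 of 5 cases, by 1.04 for Ms4a7, 0.86 for C1qb, 0.76 for C1qa and 0.32 for Cd68, with a mean level of 9.17 to 10.61 in TG mice and 8.88 to 9.59 in WT mice. By strain, the median change of the macrophage list was 1.36 in A/J, 0.19 in AKR/J and 0.90 in C57BL/6J. It was 0.70 in 129, 0.62 in BALB/cJ and 0.46 in C3H, and so was highest in A/J and C57BL/6J. These strains also had the lowest medians of the endothelial list (-0.71 and -0.51) and the heart muscle list (-1.44 and -1.07). The fibroblast list had medians of 0.11 in A/J, 0.02 in AKR/J, -0.19 in C57BL/6J, -0.06 in 129, 0.01 in BALB/cJ and -0.06 in C3H. Endothelial markers fell in 4 of 4 measured cases, Tek by 0.60, Ramp2 by 0.49, Eng by 0.46 and Pecam1 by 0.22 (11.60 to 12.20 in TG and 12.15 to 12.57 in WT mice). Cdh5 and Kdr were not measured. Heart muscle markers also fell in 4 of 4 cases, Myl7 by 0.92, Myh6 by 0.91, Actc1 by 0.87 and Tnnt2 by 0.75. Their mean level was 9.75 to 11.32 in TG and 10.82 to 11.44 in WT mice. The skeletal muscle markers Acta1 and Ckm were not measured. Both measured adipose markers fell, Fabp4 by 1.02 and Adipoq by 0.69 (7.43 to 8.40 in TG and 7.83 to 9.74 in WT mice). Plin1, Cidec and Lep were not measured. Of 6 lung epithelial markers Sftpd rose (0.23) and Scgb3a2 and Scgb1a1 fell by 0.65 and 0.29 (12.43 to 12.76 in TG and 12.71 to 12.84 in WT mice). The marker counts here and in the paragraph before stand beside 13.2% of all genes higher and 13.5% lower. The part of the marker shifts in the collagen changes was not tested.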

How the data were processed

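Total RNA of the right lung lobe of 24 mice was measured on whole-transcript arrays. The authors deposited 1 table of log2 intensities per probe set, between 3.41 and 14.75; its unit was read from the values, and the sources used here do not state the normalisation software, log base or build. Nothing was rescaled. Of 25285 probe sets, 25284 had a value on every array and 14539 carried 1 gene symbol in the platform annotation, which gave 13499 genes, each by its probe set of highest mean. Few genes of chromosomes 6, 7, 8, 9 and X were in the table used here (1.2%, 1.1%, 1.2%, 1.7% and 2.0% of their protein-coding genes), nor many of chromosome 5 (26.3%). The number of arrays limits precision, and the labels treat each array as a separate mouse.

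Differences were tested two-sided on the log2 scale with lmFit and eBayes of limma 3.58.1 in R 4.3.3, with Benjamini-Hochberg adjustment over all genes and a threshold of 0.05. The comparison over all strains used strain and genotype as terms (17 residual degrees of freedom), and the other comparisons used 12 group means (12 residual degrees of freedom), so that strains with 1 WT mouse shared the spread of all groups. Sets are equal-weight means of strains, and their errors come from the spread of mice within groups, not of strains within a set. The code was tested on simulated data with known changes. The table was read with pandas 2.3.3 and drawn with matplotlib 3.10.9 in Python 3.11.15.

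The members, the other gene lists and the cell type markers were chosen with earlier results of these data known. Values mouse by mouse were given for the 8 called members of largest rise and for Col18a1, which was added after its values were seen. All called genes of the biosynthesis list and up to 4 each way of every other list were named. Alternatives were quantile normalisation, the mean of a gene's probe sets, array weights, a trended robust variance, leaving out dim genes, testing all probe sets, a replicate block, and leaving out each mouse and each strain.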

Additional observations from a re-analysis of the deposited data

How the results depend on the processing

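Of the 19 members that rose over all strains, 15 were called under all 37 alternatives, and the exceptions were Loxl4, Col18a1, Col8a1 and Col24a1. Col1a1 kept a change of 0.96 to 1.11, Col3a1 of 0.93 to 1.01 and Lox of 1.07 to 1.38 over these alternatives. Col23a1 was called lower under 10 of the 37, among them leaving out dim genes (adjusted p = 0.0471, limma). Loxl4 lost its call with array weights (0.0549), all probe sets tested (0.0538), the mean of its probe sets (0.0974), without A/J, AKR/J, C57BL/6J or 129 (0.0536 to 0.195), and without either TG mouse or WT mouse 2 of C57BL/6J or the WT mouse of AKR/J or 129 (0.0573 to 0.113). With array weights, the number of called members became 5 in BALB/cJ, against 3, 2 in the difference of effects, against 0, 14 in prone minus resistant TG mice, against 8, and 3 in strain dependence, against 0. With all probe sets tested, a longer list to adjust over, it became 3 in AKR/J, against 5, 1 in C3H, against 3, and 5 in prone minus resistant TG mice, against 8. With AKR/J left out, the difference of effects called 4 members. The share of all genes called was not counted under any alternative. The cause of the shifts in these counts was not tested.

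With 1 mouse left out at a time, the number called was 18 to 20 over all strains, 17 to 19 in prone strains, 8 to 10 in resistant strains, 11 to 16 in C57BL/6J, 8 to 12 in A/J, 3 to 6 in AKR/J, 4 to 7 in 129, 2 to 4 in BALB/cJ and 1 to 3 in C3H. It was 0 to 1 in the difference of effects (1 without TG mouse 2 of C57BL/6J), 0 to 2 in strain dependence, 5 to 10 in prone minus resistant TG mice and 0 to 0 in prone minus resistant WT mice. Leaving out the lone WT mouse of a strain gave no estimate for that strain or its set. Signs turned only for members near 0 that never passed. P4ha1 had -0.001 without C57BL/6J, -0.002 without 129, -0.037 without BALB/cJ and -0.028 without C3H, and -0.037 to 0.047 with 1 mouse left out. Col8a2 had 0.014 with a replicate block, 0.025 without C57BL/6J, 0.028 without 129, and -0.068 to 0.028 with 1 mouse left out. Col20a1 had -0.013 without A/J, and -0.013 to 0.084 with 1 mouse left out.

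The replicate numbers did not pair the mice. Residuals of the 52 same-numbered pairs had a median correlation of -0.017 (-0.154 to 0.128), against 0.002 for 102 other pairs, and 8 of 19 mice were closest to a same-numbered one. With a replicate block, 3 members were called in AKR/J and 1 in C3H, and over all strains Col11a1, Col19a1 and Col27a1 joined while Loxl4 was lost (adjusted p = 0.0552, limma).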

Other observations

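TG mouse 2 of AKR/J stood apart from its group in the hydroxylase genes, a pattern chosen after the values were seen and not tested. Its P4ha1 level was 11.59, the highest of all 24 mice, against 10.69 and 10.81 in the other TG mice of AKR/J and 11.23 in the WT mouse of that strain. Its P4ha2 level was 9.49, against 9.03 in both other TG mice and 9.11 in the WT mouse. Plod1, the lysyl hydroxylase, had 10.75 in this mouse, against 10.30 and 10.18 in the other TG mice and 10.22 in the WT mouse. Among the collagen chains this mouse had no single place in the TG mice of AKR/J. It was the highest for some, with Col1a1 at 11.39 against 11.16 and 11.09, and Col3a1 at 10.52 against 10.20 and 10.28. It was the lowest for others, with Col24a1 at 7.54 against 7.78 and 7.71, and Col20a1 at 7.93 against 8.39 and 8.26.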
